A study of Mus musculus with 7 samples.

Results

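Dendritic cells arise under the control of a few transcription factors, and the subset that cross-presents antigen to CD8 T cells is reached by NK cells and T cells through the chemokine XCL1 and its receptor XCR1. The 9 genes described here are the lineage factors Irf8, Irf4, Batf3, Zbtb46, Tcf4 and Spib, the cDC1 surface receptors Xcr1 and Clec9a, and the ligand gene Xcl1. They were listed by name, with no threshold on their values, and are 9 of the 55491 gene rows of the matrix. Their levels were followed across the 23 cell type names that the authors gave to 28644 cells.

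The cells came from 7 mice with intracranial CT-2A glioma, an established mouse glioma line. The 4 KO mice carried a tamoxifen-inducible Cre at the Sall1 locus (B6;129-Sall1 tm5(cre/ERT2)Ryn) and homozygous floxed Siglece (B6.129P2-Siglece tm1Bcgen). The 3 WT mice carried the floxed alleles without the driver. All 7 mice were engrafted at 8 to 12 weeks of age, and both groups received 2.5 mg of tamoxifen per injection, daily from day 7 to day 21 after engraftment and every other day from then on. Live cells positive for CD45, CD11b or both were sorted from frozen and thawed suspensions of the tumour-bearing hemisphere for droplet single-cell sequencing of transcript 5′ ends, with 1 library per mouse. The labels describe the deletion as specific to microglia. Dendritic cells and lymphocytes are not its named target, while microglia themselves held Irf8, Tcf4 and Batf3.

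The libraries held 1410 to 5856 cells and 16037214 to 38966377 UMIs (unique molecular identifiers, each standing for 1 captured transcript), with a median of 4479 to 9554 UMIs per cell. Siglece, the targeted gene, had 2, 1, 0 and 0 UMIs in the 30, 21, 13 and 49 microglia of KO replicates 1 to 4 and 20, 19 and 7 UMIs in the 113, 92 and 96 microglia of WT replicates 1 to 3. Of the cell barcodes, 460 occurred in more than 1 library and covered 926 cells. By Xist and Y-linked transcripts, 2 KO mice (replicates 1 and 2) and 1 WT mouse (replicate 3) were female, and the other 2 KO and 2 WT mice were male.

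Irf8 and Batf3 are required for the cDC1 lineage, in which a BATF3 and IRF8 complex maintains the Irf8 gene. IRF4 supports the cDC2 lineage, ZBTB46 marks committed conventional dendritic cells, and TCF4 (also called E2-2) with SPIB drives plasmacytoid dendritic cells, the main source of type I interferon. XCR1 is the receptor for XCL1, and CLEC9A binds actin filaments exposed by dead cells, so that cDC1 can retrieve antigen from them.

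The authors' names of the dendritic cells and NK cells were checked against marker genes, since what follows rests on them. The names of the T cell subsets, used for Xcl1 below, were not checked in this way. Levels are in CPM, the UMIs of a gene per 1000000 UMIs of a cell type in a mouse, as mean ± SD over the mice with at least 20 cells of that type. In the cells annotated cDC1, 6 of 6 cDC1 markers (Cadm1, Naaa, Itgae, Wdfy4, Tlr3 and Gcsam) had their highest mean level among the 23 cell types, and the same held for 7 of 7 plasmacytoid markers in the pDCs and 7 of 7 NK markers in the NK cells. In the mo-DCs (monocyte-derived dendritic cells by the authors' name) 4 of 7 markers were highest: Cd209a, Itgax, H2-Aa and Cd74. The other 3, genes of monocyte origin, had lower levels: Ly6c2 was at 362 CPM against 3388 in monocytes, Ccr2 at 73.9 against 370 in monocytes and Fcgr1 at 107 against 425 in microglia. The mo-DC name was thus met only in part, and less by its monocyte markers. H2-Aa (9846 CPM) and Cd74 (28086) were also high in cDC1 (8804 and 25272), and Cd209a is a cDC2 marker as well. Ccr2 was lower in mo-DCs than in cDC1 (106) and pDCs (84.5). The cells annotated cDC2 went against their name. Only Flt3, of 6 cDC2 markers, was highest there, and Cd209a (0.097 CPM), Clec10a (2.91), Mgl2 (8.47), Itgam (8.51) and Sirpa (20.6) were low. Instead, 4 of 4 genes of mature migratory dendritic cells were highest in them: Ccr7 at 3859, Fscn1 at 5134, Ccl22 at 1118 and Cacnb3 at 797 CPM. The summed cDC2 markers were higher in the mo-DCs, at 813 CPM (611 to 1051 over mice), than in the cells annotated cDC2, at 292 (241 to 345). The names are kept below as the authors' labels, and "annotated cDC2" refers to these Ccr7-high, Fscn1-high cells.

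The 250 bases before the start site of 3 members are shown because E proteins such as TCF4 recognise some forms of the E-box. The 3 were chosen because Spib and Clec9a were well above their levels in most cell types in plasmacytoid cells, while Xcr1 was near 0. Each sequence is from RefSeq (GRCm38.p6), 5′ to 3′ on the strand of the gene, and ends next to the 5′ end of the gene in GENCODE M21. Capitals mark the E-box CANNTG in any form, searched on both strands.
Spib (chr7:44532072-44532321, minus strand): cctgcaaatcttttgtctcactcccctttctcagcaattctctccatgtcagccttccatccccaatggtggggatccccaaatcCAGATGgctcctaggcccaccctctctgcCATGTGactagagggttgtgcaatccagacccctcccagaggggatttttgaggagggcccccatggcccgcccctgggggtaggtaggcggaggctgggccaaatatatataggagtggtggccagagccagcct
Clec9a (chr6:129408612-129408861, plus strand): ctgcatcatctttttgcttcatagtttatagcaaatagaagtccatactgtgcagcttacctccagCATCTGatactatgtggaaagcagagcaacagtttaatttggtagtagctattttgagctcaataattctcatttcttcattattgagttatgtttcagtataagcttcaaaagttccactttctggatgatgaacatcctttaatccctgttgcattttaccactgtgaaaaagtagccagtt
Xcr1 (chr9:123862030-123862279, minus strand): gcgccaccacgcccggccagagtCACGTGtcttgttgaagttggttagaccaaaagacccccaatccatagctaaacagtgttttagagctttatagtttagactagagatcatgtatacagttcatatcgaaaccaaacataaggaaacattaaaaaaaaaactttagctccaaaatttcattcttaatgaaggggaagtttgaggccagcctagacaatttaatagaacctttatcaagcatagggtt
Spib held 2 E-boxes, and Clec9a and Xcr1 held 1 each. RefSeq gave 9 promoters for 8 of the members, and 6 of the 9 held an E-box, against 66.2% of all 32851 promoters. The ETS-IRF composite (GGAA, any 2 bases, GAAA), at which SPI1 or SPIB can bind together with IRF8 or IRF4, occurred in 0 of the 9 (2.30% of all promoters). The IRF repeat (GAAA, any 2 bases, GAAA) also occurred in 0 of the 9 (2.98%). The AP-1 motif TGANTCA, at which BATF factors can bind with IRFs, occurred in 1 of the 9 (6.75%). A match is a run of letters and not a measured binding site, and regions farther from the start sites were not searched.

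These names were made from the same cells, so differences between cell types are described and not tested. Levels of different genes are not compared with each other, as transcript length and capture were not modelled.

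Irf8 was highest in plasmacytoid cells, at 2161 ± 244 CPM (n = 7; lowest 1971, median 2010, highest 2611). It stood at 1422 ± 124 in cDC1 (1164, 1475 and 1523), and the ranges of these cell types did not overlap. Annotated cDC2 had 1140 ± 230 (846, 1157 and 1561), overlapping the range of cDC1, with cDC1 the higher in 6 of 7 mice. NK cells came next, at 730 ± 277 (415, 680 and 1288). They lay below annotated cDC2 in 7 of 7 mice and above mo-DCs in 7 of 7. In mo-DCs Irf8 was only 197 ± 77.3 (114, 182 and 350), in place 11, with a range that overlapped those of the monocytes (201 ± 49.0) and of the P5 macrophages (192 ± 18.9). Of all Irf8 UMIs in the matrix, 44.3% lay in cDC1 and 8.66% in plasmacytoid cells. Without thinning, 100% of plasmacytoid cells, 98.7% of cDC1, 93.0% of annotated cDC2 and 52.6% of mo-DCs held an Irf8 UMI.

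Irf4, which is also a factor of B cell and T cell activation, had its highest means outside the dendritic cells. B cells had 160 ± 51.5 CPM (n = 6), and this annotation also carried the plasma cell gene Jchain at 6985. Tregs had 109 ± 26.9 and Tfh cells 83.4 ± 19.0 (n = 6 each), and neighbouring places in this order overlapped in range. Among the dendritic cells, plasmacytoid cells had 53.0 ± 18.3 (26.8, 62.1 and 72.7) and mo-DCs 37.7 ± 12.7 (22.02, 40.6 and 56.1), with plasmacytoid cells the higher in 6 of 7 mice. Annotated cDC2 had 16.5 ± 10.6 (6.96, 12.6 and 37.5), below mo-DCs in 7 of 7 mice. In cDC1 Irf4 was 1.17 ± 0.481 (0.624, 1.04 and 2.07), below each of these dendritic cell types in 7 of 7 mice and close to its level in tumour and stromal cells (0.451 ± 0.549, n = 5). The mo-DCs, with the highest mean of summed cDC2 markers among the dendritic cells, thus held more Irf4 and less Irf8 than annotated cDC2 in each mouse. Plasmacytoid cells had summed cDC2 markers of 669 CPM (546 to 737 over mice), which overlapped the mo-DCs (611 to 1051). They had the highest Irf8.

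**Figure D1:**
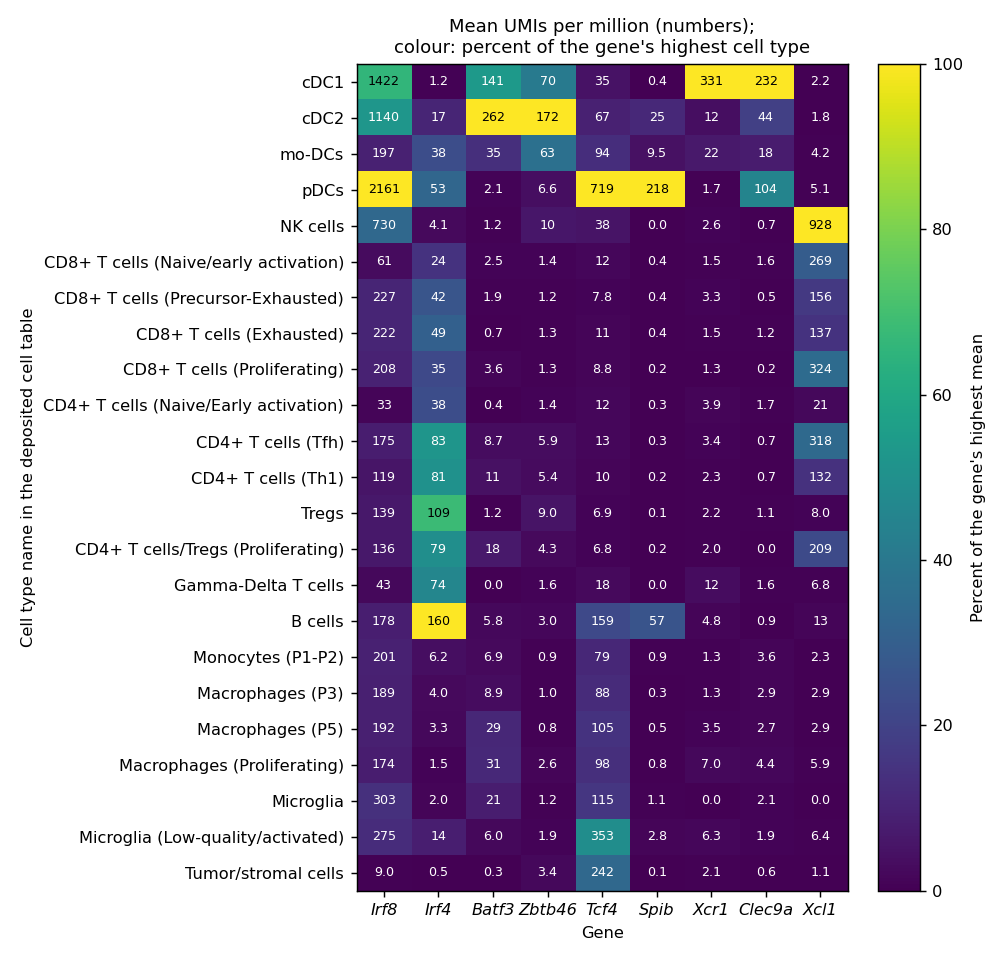
Mean CPM of the 9 genes (columns) in the 23 authors' cell types (rows), over mice with at least 20 cells; colour is the percent of the highest mean of the gene. Xcr1 and Clec9a peak in cDC1, Batf3 and Zbtb46 in annotated cDC2, Irf8, Tcf4 and Spib in pDCs, Irf4 in B cells and Xcl1 in NK cells.

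Batf3, the AP-1 factor of cDC1, was higher in annotated cDC2 than in cDC1. Annotated cDC2 had 262 ± 35.9 CPM (210, 259 and 299; n = 7) and cDC1 had 141 ± 22.3 (111, 143 and 179), a ratio of 1.86, with no overlap between the ranges. mo-DCs followed at 35.2 ± 13.9, overlapping the proliferating macrophages (30.6 ± 12.0, n = 6) and the P5 macrophages (29.1 ± 5.81). Plasmacytoid cells had 2.08 ± 3.27, with 7 UMIs in 541 cells. Within the same libraries cDC1 held more UMIs per cell (median 13792) than annotated cDC2 (6439). The share of cells with a Batf3 UMI was 77.8% in cDC1 against 76.2% in annotated cDC2 as deposited. After each cell was thinned to 1500 UMIs it was 19.2 ± 2.21% against 31.2 ± 3.13%.

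Zbtb46, a repressor that marks the conventional dendritic lineage, had the same order. Annotated cDC2 had 172 ± 25.8 CPM (135, 173 and 214), 2.45 times the level in cDC1 at 70.3 ± 10.2 (55.8, 70.9 and 82.2), again without overlap. mo-DCs had 63.3 ± 14.3 (49.2, 55.9 and 84.3), which overlapped cDC1, with cDC1 the higher in 5 of 7 mice. The next cell type, NK cells, had 10.4 ± 7.52, 6.06-fold below mo-DCs, and the highest NK value (25.8) lay under the lowest mo-DC value. Plasmacytoid cells had 6.59 ± 6.68. After thinning, 24.2% of annotated cDC2, 8.98% of cDC1 and 8.43% of mo-DCs held a Zbtb46 UMI, against 0.0701% of the P5 macrophages.

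Tcf4, the E protein of plasmacytoid fate, had 719 ± 88.7 CPM in plasmacytoid cells (598, 737 and 847; n = 7), 2.04 times the next cell type. That was the low-quality or activated microglia at 353 ± 102 (n = 5), followed by tumour and stromal cells at 242 ± 53.5 (n = 5) and B cells at 159 ± 37.2 (n = 6). Among the other dendritic cells the order was mo-DCs (94.2 ± 25.6), annotated cDC2 (66.6 ± 14.8) and cDC1 (34.7 ± 7.04), the same in 7 of 7 mice. After thinning, 67.3 ± 7.69% of plasmacytoid cells and 4.95 ± 1.46% of cDC1 held a Tcf4 UMI.

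Spib, an ETS factor of plasmacytoid and B cells, had 218 ± 45.2 CPM in plasmacytoid cells (173, 195 and 296), which held 55.7% of all Spib UMIs. B cells came next by mean at 56.9 ± 46.0 (lowest 9.60, median 52.7, highest 117, n = 6), with no overlap with plasmacytoid cells. In KO replicate 4 (273 B cells) and WT replicate 2 (357) they had 9.60 and 15.5, below annotated cDC2 (29.9 and 18.7). In the other mice with at least 20 B cells they lay above annotated cDC2. Annotated cDC2 had 25.2 ± 13.5 (8.01, 23.5 and 47.3) and mo-DCs 9.53 ± 6.25 (4.92, 7.29 and 22.3), with annotated cDC2 the higher in 7 of 7 mice. cDC1 had 0.392 ± 0.535, and 0 Spib UMIs were found in the NK cells.

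**Figure D2:**
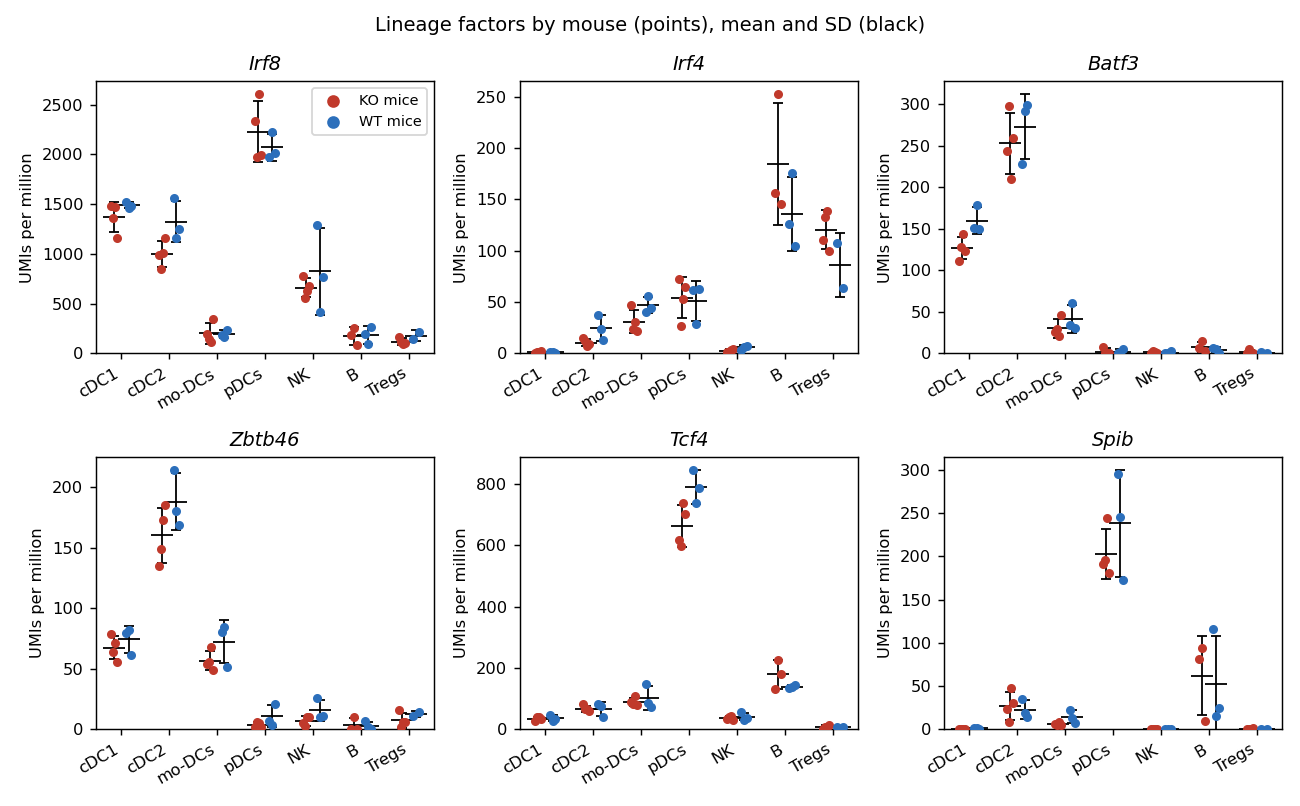
CPM of the 6 lineage factors in 7 cell types; each point is a mouse (red KO, blue WT), and black lines give the mean and SD of each genotype. The plasmacytoid points of Tcf4 and Spib and the annotated cDC2 points of Batf3 and Zbtb46 lie above all other cell types drawn, and Irf4 stays near 0 in cDC1.

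Xcr1, the chemokine receptor, was nearly limited to cDC1, which held 91.9% of its UMIs. cDC1 had 331 ± 45.1 CPM (270, 334 and 399; n = 7), 14.9 times the mo-DCs at 22.2 ± 24.6 (0.605, 16.9 and 74.9). The mo-DC mean rested on KO replicate 4 at 74.9, as the other 6 mice lay between 0.605 and 24.8. Annotated cDC2 had 11.9 ± 6.80 and plasmacytoid cells 1.71 ± 2.55, the latter with 7 UMIs in all.

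Clec9a, the dead-cell receptor, was less restricted. cDC1 had 232 ± 45.5 CPM (171, 224 and 307) and plasmacytoid cells 104 ± 37.0 (62.2, 97.9 and 163), with no overlap and a ratio of 2.22. Annotated cDC2 had 43.7 ± 15.5 (23.5, 43.6 and 64.0), below plasmacytoid cells and above mo-DCs (17.6 ± 13.1) in 7 of 7 mice. Of the 9 members only Clec9a had values that were not whole numbers, in 113 of its 2345 cells, and these carried 7.28% of its UMIs.

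Counted per cell, 1422 of 1864 cDC1 (76.3%, exact 95% interval 74.3 to 78.2) held UMIs of both Xcr1 and Clec9a, 7.73% held Xcr1 only, 10.6% Clec9a only and 5.36% neither. The share with both was 72.5% to 79.0% in the 7 mice. In plasmacytoid cells 39.0% held Clec9a only, 0.555% Xcr1 only and 2 of 541 cells both. In annotated cDC2 16.4% held Clec9a only and 2.62% both. After thinning, Clec9a was found in 12.4 ± 4.49% of plasmacytoid cells and 28.5 ± 3.36% of cDC1, against 0.360% of P5 macrophages and 0.239% of B cells, whose median depths were 6437 and 7302 UMIs and that of plasmacytoid cells 6519. Intervals of single shares cover counting error only.

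**Figure D3:**
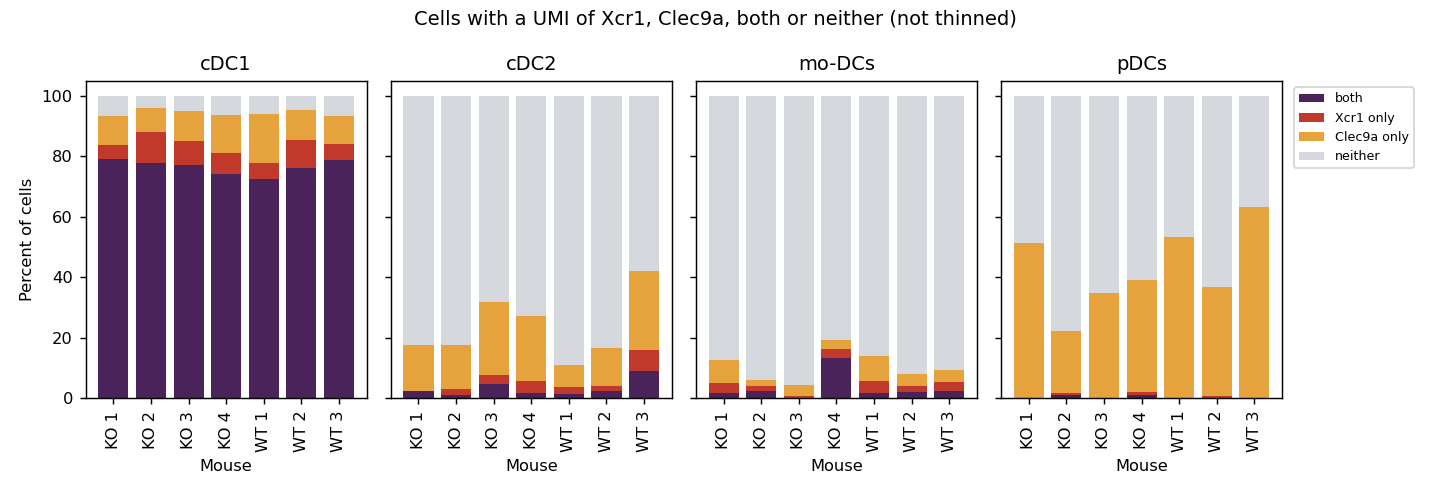
Percent of cells of each mouse with a UMI of Xcr1 and Clec9a, of only 1 of them or of neither, without thinning, in the 4 dendritic cell annotations. Between 72.5% and 79.0% of cDC1 held both in each mouse, plasmacytoid cells held Clec9a almost alone, and KO replicate 4 stands out among the mo-DCs with 13.4% of cells holding both.

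Of the 1569 mo-DCs, 52 (3.31%) held both receptors, and 27 of these came from the 202 mo-DCs of KO replicate 4 (13.4%, exact 95% interval 8.997 to 18.8). In the other 6 mice the share was 0% to 2.35%. The 52 cells had a median of 24642 UMIs, against 8866 in the other mo-DCs and 13792 in cDC1. Summed over these cells, cDC1 markers reached 1672 CPM (393 in the other mo-DCs, 2338 in cDC1), cDC2 markers 329 (761.7 and 44.0), Irf8 915 (135 and 1408) and Irf4 11.6 (39.4 and 1.22). Pooled over mice, these values lay between those of the other mo-DCs and cDC1, but the cells were picked by a pair of cDC1 genes and came largely from 1 mouse, and in KO replicate 2 and WT replicate 3 they held 0 Irf4 UMIs. The part of cells captured together in these values was not tested.

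Xcl1 was highest in NK cells, at 928 ± 216 CPM (592, 965 and 1208; n = 7). It lay above each dendritic cell type in 7 of 7 mice, but the lowest NK value, 592 in KO replicate 1, was under the highest Tfh value, 645 in KO replicate 2. The T cell types followed with wide spreads: proliferating CD8 T cells at 324 ± 178 (n = 6), Tfh cells at 318 ± 196 (n = 6), naive or early activated CD8 T cells at 269 ± 97.2 (n = 7), proliferating CD4 T cells and Tregs at 209 ± 128 (n = 6), precursor-exhausted CD8 T cells at 156 ± 63.1 (n = 7), exhausted CD8 T cells at 137 ± 102 (n = 6) and Th1 cells at 132 ± 108 (n = 6). Neighbours in this order overlapped in range. Naive or early activated CD4 T cells had 21.2 ± 17.6 (n = 7), and Tregs (7.96 ± 8.75, n = 6) and gamma-delta T cells (6.82 ± 13.6, n = 4) held little. The 4 dendritic cell annotations had 1.78 to 5.15 CPM, with cDC1, the main carriers of the receptor, at 2.18.

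After thinning to 1500 UMIs, 40.8 ± 10.4% of NK cells held an Xcl1 UMI (61.4% without thinning), 19.1 ± 7.12% of proliferating, 16.3 ± 4.36% of naive or early activated, 11.3 ± 5.45% of precursor-exhausted and 8.39 ± 6.77% of exhausted CD8 T cells. In P5 macrophages, which should lack the gene, the share was 0.448% (1.68% without thinning). The median depth was 5126 UMIs in NK cells and 6437 in these macrophages. Among CD4 types the thinned share was 8.79 ± 2.96% in Tfh cells and 5.65 ± 2.67% in Th1 cells, and 0.859 ± 1.12% in Tregs.

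In the CD4 types Xcl1 was found in a smaller share of cells than in NK cells. Without thinning, a positive cell held on average 9.75 Xcl1 UMIs in Tfh cells, 6.32 in Th1 cells, 19.0 in proliferating CD4 T cells and Tregs and 9.44 in NK cells. The positive cells differed in depth, with medians of 4714.5, 5640, 11890 and 6278 UMIs, so these averages are not ordered here. The 188 Xcl1-positive cells annotated Tfh (median 4714.5 UMIs, against 3621 in the others) held a Cd8a or Cd8b1 UMI in 43.6% of cases and a Cd4 UMI in 54.3%. The 1176 Xcl1-negative cells of this name held them in 15.6% and 76.0%. The same direction was seen in Th1 cells (28.8% against 14.9% with Cd8) and in proliferating CD4 T cells and Tregs (48.3% against 17.5%). Whether these are CD8 T cells under a CD4 name or droplets with more than 1 cell was not tested.

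By source, CD8 T cells gave 43.9 ± 10.7% of the Xcl1 UMIs of a library (32.0% to 63.9%, n = 7), NK cells 30.1 ± 8.34% (18.3% to 45.2%), CD4 T cells with Tregs 23.5 ± 12.4% (10.6% to 47.3%) and all other cells but gamma-delta T cells 2.44 ± 1.11%. NK cells were 3.47 ± 2.31% of the cells.

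**Figure D4:**
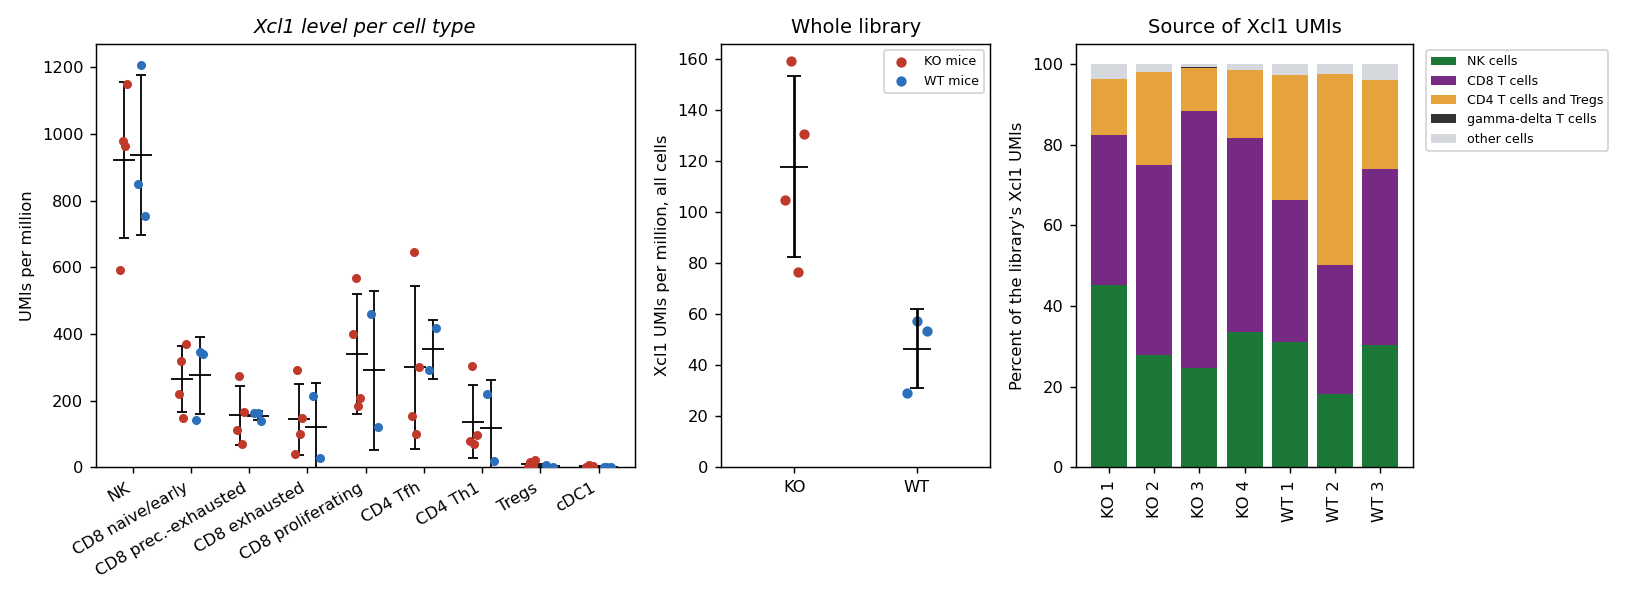
Left, Xcl1 CPM by cell type, with each mouse as a point (red KO, blue WT) and mean and SD in black; middle, Xcl1 CPM over all cells of a library; right, percent of the Xcl1 UMIs of each library by source. NK cells lie between 592 and 1208 in both genotypes, while the 4 KO libraries (76.4 to 159) lie above the 3 WT libraries (29.1 to 57.4). The share of all genes in this order was not counted.

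Lists of other genes of each lineage, and a list of signals that includes the member Xcl1, were compared with the members' pattern. Of 12 genes of the cDC1 programme, 6 of which are the markers used to check the name above, 10 had their highest mean in cDC1, among them Ppt1 (962 CPM), Naaa (936), Cd24a (515) and Wdfy4 (499). The cDC1 factors Id2 and Nfil3 were the 2 others: Id2 was at 1251 in cDC1 and 1407 in annotated cDC2, and Nfil3 was at 54.6 in cDC1, 390 in annotated cDC2 and 467 in monocytes. Of 12 plasmacytoid genes, which include the 7 markers used above, 11 were highest in plasmacytoid cells, led by Bst2 (4213), Klk1 (2477), Siglech (2397) and Ly6d (2358). Of 12 genes of the cDC2 programme only Relb, an NF-kB subunit, was highest in annotated cDC2 (631, against 86.5 in mo-DCs), while Mgl2, Cd209a and Epcam were highest in mo-DCs. The rest were highest elsewhere: Clec10a and Cd7 in plasmacytoid cells, Klf4 in monocytes and Rbpj in Th1 cells. Itgam was highest in microglia, and Sirpa, Notch2 and Zeb2 in the low-quality or activated microglia.

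Of 12 genes of dendritic cell development, 5 were highest in annotated cDC2: Flt3 (252), Stat3 (791), Csf2rb (462), Cbfa2t3 (289) and Stat5a (99.2). Flt3, the receptor for the growth factor of these lineages, was at 217 in cDC1, 197 in plasmacytoid cells and 106 in mo-DCs. Of 7 signals that NK and CD8 T cells can send to cDC1, only Xcl1 was highest in NK cells. Ccl3, Ccl4, Ifng and Csf2 were highest in Tfh cells, Ccl5 in exhausted CD8 T cells and Flt3l, at a low 14.1, in naive or early activated CD8 T cells.

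For each member the 3 genes most like it in pattern were taken by Pearson correlation of log2(mean CPM + 1) over the 23 cell types, among 15811 genes; the points share libraries and annotation, and the values are descriptions. Clec9a was closest to Flt3 (r = 0.96), Sct (0.93) and Gpr4 (0.92), and Xcl1 to Crtam (0.94), Klrc2 (0.94) and Gzma (0.93). Xcr1 was closest to Gramd2 (0.89), Fndc5 (0.89) and Septin3 (0.88), and Spib to Myzap (0.90), Ly6d (0.88) and Iglc3 (0.87). Tcf4 was closest to Pkig (0.92), Zfp608 (0.90) and Gaa (0.90). Batf3 was closest to Lhpp (0.88), Vdac2 (0.84) and Tspan33 (0.84), and Zbtb46 to Slc25a38 (0.89), Adam23 (0.87) and Serpind1 (0.86). Irf4 was closest to Trp53i11, Ltb and Rdh12 (0.86 each), and Irf8 had the weakest likeness, to Nudt14 (0.80), Hhex (0.79) and Fut4 (0.76).

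The second comparison was between KO and WT mice within a cell type, on UMIs summed per mouse, with edgeR's quasi-likelihood test and adjustment over all genes tested in that cell type. No member passed an adjusted p of 0.05 in any of the 6 cell types: 0 of 36 tested results, of which 27 were fitted below 0 and 9 above. These results repeat the same genes and mice over cell types, and 16 changed sign under at least 1 alternative. The median log2 fold change of all genes tested lay between -0.0094 and 0.014 in these cell types. The split itself was not tested. The share of all genes called was 0% in cDC1 (11009 tested), annotated cDC2 (7853), mo-DCs (10501) and CD8 T cells (11867), 0.045% in plasmacytoid cells (3 of 6663) and 0.0141% in NK cells (1 of 7068). At an unadjusted p under 0.05 edgeR counted 642, 759, 798, 586, 425 and 289 genes in these cell types, in this order. At an adjusted p under 0.05 DESeq2 called 15, 13, 34, 13, 6 and 4. At that unadjusted level the share of genes was 5.83% in cDC1, 9.67% in annotated cDC2, 7.6% in mo-DCs, 6.38% in plasmacytoid cells, 4.09% in NK cells and 4.94% in CD8 T cells. The members reached it in 1 of 6, 2 of 7, 4 of 9, 1 of 5, 0 of 3 and 2 of 6 results.

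Members whose 4 KO mice lay below the 3 WT mice numbered 1 in cDC1, 1 in annotated cDC2, 0 in mo-DCs, 0 in plasmacytoid cells, 0 in NK cells and 1 in CD8 T cells. Over all genes tested this order was found in 3.21%, 2.92%, 2.82%, 3.18%, 2.99% and 2.72%. The opposite order, KO above WT, was found for 0 members and for 3.14%, 7.44%, 5.35%, 3.6%, 3.49% and 3.57% of all genes.

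In cDC1, Batf3 was 111, 128, 143 and 124 CPM in KO replicates 1 to 4 and 151, 179 and 150 in the WT replicates. The 4 KO mice lay below the 3 WT mice. The log2 fold change was -0.35 (SE 0.12; edgeR adjusted p = 0.732). Irf8 was 1485, 1361, 1475 and 1164 in KO and 1523, 1462 and 1486 in WT, with overlapping groups and a log2 fold change of -0.13 (95% interval -0.34 to 0.08). Xcr1 was 279, 343, 333 and 334 in KO and 270, 363 and 399 in WT, also overlapping (-0.10, -0.40 to 0.20), and Clec9a gave -0.21 (-0.59 to 0.16). Zbtb46 (-0.17, -0.51 to 0.16) and Tcf4 (-0.0015, -0.40 to 0.40) did not pass either.

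In annotated cDC2, Irf8 was 988, 846, 1010 and 1157 in KO and 1561, 1160 and 1254 in WT. The KO mice lay below the WT mice, by a narrow gap between KO replicate 4 and WT replicate 2; the log2 fold change was -0.50 (SE 0.17; edgeR adjusted p = 0.417). Irf4 was 14.97, 11.6, 6.96 and 8.83 in KO and 37.5, 23.4 and 12.6 in WT, where WT replicate 3 fell within the KO range. Its log2 fold change was -1.34 (SE 0.37; edgeR adjusted p = 0.348), and only when no filter on low counts was used did it pass, at an adjusted p of 0.0193 (0.0193 to 0.665 over the alternatives). Batf3 (-0.21, -0.57 to 0.16) and Zbtb46 (-0.31, -0.68 to 0.06) overlapped between the groups.

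In mo-DCs, Irf4 was 46.9, 23.9, 30.2 and 22.02 in KO and 40.6, 56.1 and 44.4 in WT. KO replicate 1 lay within the WT range, and the log2 fold change was -0.68 (SE 0.25; edgeR adjusted p = 0.603; 0.0252 with no filter). Spib was 5.86, 4.92, 8.46 and 5.14 in KO and 22.3, 12.7 and 7.29 in WT, with KO replicate 3 above WT replicate 3, and gave -1.34 (SE 0.36; edgeR adjusted p = 0.542; 0.00673 with no filter). Zbtb46 was 53.9, 55.9, 67.7 and 49.2 in KO and 80.4, 84.3 and 51.7 in WT, overlapping (-0.41, SE 0.18; edgeR adjusted p = 0.634). Xcl1 was the 1 mo-DC member with an unadjusted p under 0.05 and a value above 0. It was 8.79, 3.86, 1.81 and 8.44 in KO and 3.72, 1.06 and 1.46 in WT, also overlapping (1.37, SE 0.61, edgeR adjusted p = 0.645). In P5 macrophages, which should lack the gene, Xcl1 was 5.48, 4.70, 2.28 and 3.11 in KO and 0.797, 1.98 and 1.80 in WT. The KO mice lay above the WT mice there, on 4 to 15 Xcl1 UMIs per mouse. This order was not tested, and its share over all genes was not counted in these macrophages. In mo-DCs Xcr1 was 8.79, 20.4, 0.605 and 74.9 in KO and 8.94, 16.9 and 24.8 in WT. Its log2 fold change of 0.76 (SE 1.14) turned to -0.58 without KO replicate 4, the mouse with the mo-DCs that held both receptors. Clec9a (0.10) turned to -0.90 and Irf8 (0.03) to -0.39 without the same mouse.

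In plasmacytoid cells, Irf8 was 2334, 1971, 2611 and 1999 in KO and 1975, 2228 and 2010 in WT (log2 fold change 0.10, 95% interval -0.14 to 0.34). Tcf4 was 617, 598, 739 and 704 in KO and 847, 737 and 787 in WT, with KO replicate 3 just above WT replicate 2 (-0.26, -0.52 to 0.01; edgeR adjusted p = 0.784). Clec9a was 101, 62.2, 74.5 and 97.9 in KO and 146, 86.2 and 163 in WT, also overlapping (-0.54, SE 0.23; edgeR adjusted p = 0.732). Of the 3 genes called, Sct, the secretin gene and the second most like Clec9a in pattern, fell from 45.0 ± 28.7 (n = 3) to 9.38 ± 3.51 CPM (n = 4; log2 fold change -2.18, SE 0.41, edgeR adjusted p = 0.0406). The others, named after their values were seen, were Shisa5 (-1.02, SE 0.19, edgeR adjusted p = 0.0368) and Zfp36l2 (0.81, SE 0.15, edgeR adjusted p = 0.0368). No gene passed without KO replicate 1, without KO replicate 2 or without WT replicate 3.

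In NK cells, Xcl1 was 592, 979, 965 and 1149 CPM in KO and 849, 1208 and 755 in WT. The groups overlapped, and the log2 fold change was -0.04 (95% interval -0.48 to 0.41). Irf8 was 778, 554, 627 and 680 in KO and 1288, 415 and 771 in WT, where the WT mice spanned the KO range (-0.34, -1.07 to 0.39). In CD8 T cells, all 4 annotations summed, Xcl1 was 198, 310, 86.5 and 190 in KO and 360, 275 and 137 in WT (-0.35, -1.40 to 0.70). Xcr1 there was 0.948 to 1.88 in KO and 2.77 to 3.62 in WT, with the KO mice below (-1.21, SE 0.45, edgeR adjusted p = 0.915), at levels like those of cell types without the receptor. Batf3 in CD8 T cells was 0.788 to 2.02 in KO and 1.38 to 7.25 in WT (-1.82, SE 0.56; edgeR adjusted p = 0.888), and the log2 fold change was -0.60 without WT replicate 3, the mouse at 7.25. Of the genes tested in NK cells only Basp1 passed (-2.41, SE 0.37, edgeR adjusted p = 0.0276), named after its values were seen, and 0 genes passed without KO replicate 2, without KO replicate 3 or without high-UMI cells.

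**Figure D5:**
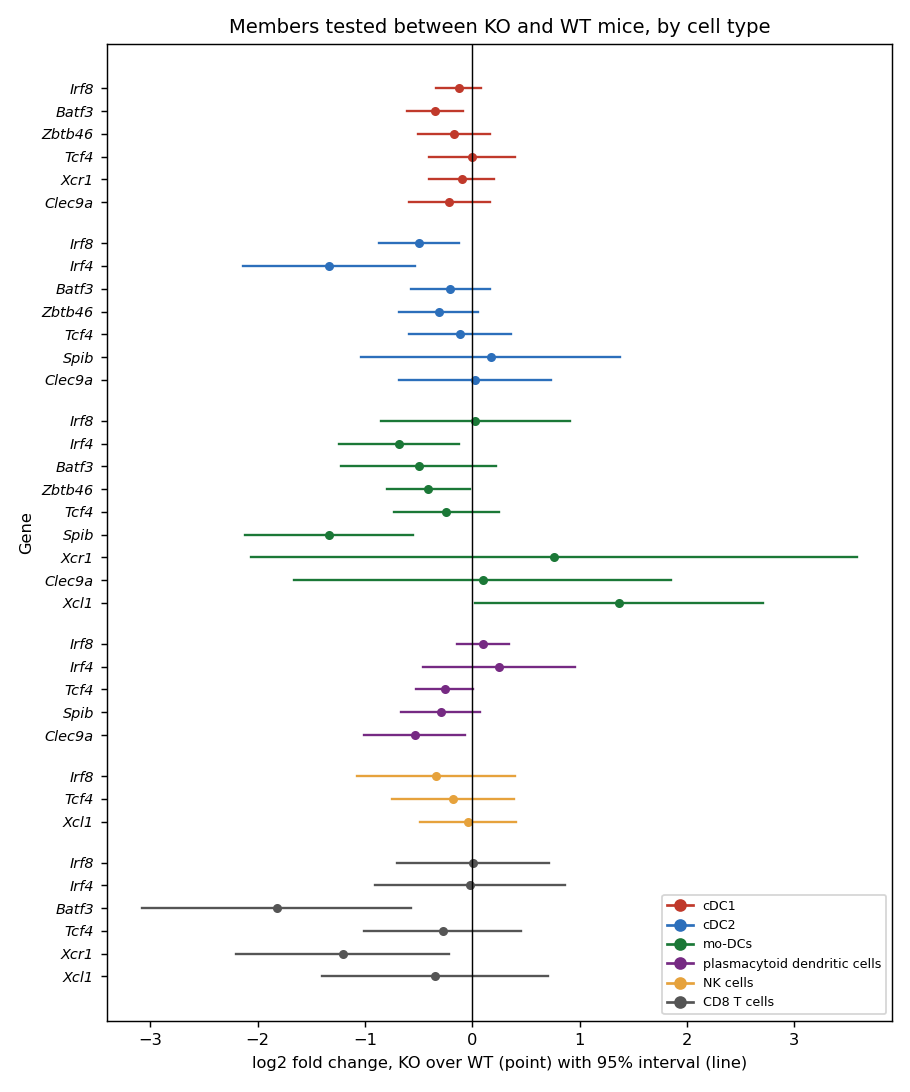
Log2 fold change, KO over WT, of each member that passed the filter in each of 6 cell types (points), with 95% intervals from edgeR (lines). None passed after adjustment. The same genes and mice recur over cell types, with 27 points below 0 and 9 above. The interval of Xcr1 in mo-DCs spans -2.06 to 3.58.

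The lists gave no call either: 0 members of the cDC1, cDC2, plasmacytoid, development and signal lists passed in any of the 6 cell types. In cDC1 the 12 cDC1 programme genes had a median log2 fold change of -0.02, against 0.00 over all genes tested, and 5 were fitted above 0. In plasmacytoid cells the 12 plasmacytoid genes had a median of 0.09 (all genes 0.01), with 8 above 0. For the cDC2 programme the median was -0.05 in annotated cDC2 (8 of 12 tested, 3 above 0) and -0.31 in mo-DCs (12 tested, 3 above 0), against 0.01 over all genes in both. In mo-DCs the plasmacytoid list had a median of -0.54 (11 tested, 3 above 0) and the cDC1 list 0.26 (12 tested, 8 above 0). In KO replicate 4 the 27 mo-DCs with both receptors had cDC1 markers at 1755 CPM, against 437 in its other mo-DCs. The part of this mouse in the cDC1 list median was not tested. In NK cells 5 of the 7 signal genes were tested, the member Xcl1 among them, with a median of -0.78 (all genes -0.01) and 0 above 0. In CD8 T cells, the other sender, 7 of 7 were tested, with a median of 0.12 (all genes 0.01) and 5 above 0. In NK cells Ccl5, a chemokine, was 2323 ± 1229 CPM in KO NK cells and 3909 ± 2099 in WT (log2 fold change -0.78, SE 0.52, edgeR adjusted p = 1.00).

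Over the whole library, which depends on how many cells of each type were captured, Xcl1 was 105, 159, 76.4 and 131 CPM in KO replicates 1 to 4 and 29.1, 57.4 and 53.3 in WT, or 118 ± 35.5 against 46.6 ± 15.3. The 4 KO values lay above the 3 WT values (exact permutation p = 0.0571, two-sided; 0.286 adjusted over the 5 permutation tests; the smallest possible p is 0.0286). By sex, the values were 105 and 159 against 53.3 in females and 76.4 and 131 against 29.1 and 57.4 in males; groups that do not overlap must also separate within each sex, so this adds no support. NK cells were 7.80, 4.88, 2.30 and 4.01% of cells in KO and 1.74, 1.19 and 2.33% in WT, and CD8 T cells 22.7, 31.6, 62.6 and 38.6% against 4.29, 11.3 and 18.9%. The difference of 71.2 CPM became 26.1 when the cell types with at least 20 cells in a mouse were weighted equally (exact permutation p = 0.457). The cell types averaged differed between mice. WT replicate 1 had too few Tfh cells, Th1 cells, Tregs, exhausted and proliferating CD8 T cells and proliferating CD4 T cells. The KO mice had too few microglia of the main annotation. This weighting thus did not remove the cell numbers, and their part in the result was not tested.

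The share of NK cells with an Xcl1 UMI after thinning was 42.2 ± 12.8% in KO and 38.8 ± 8.17% in WT (exact permutation p = 0.8286), and that of CD8 T cells 12.8 ± 4.95% and 11.7 ± 3.65% (exact permutation p = 0.743). For the receptor, Xcr1 over the whole library was 24.2, 68.0, 25.2 and 44.6 CPM in KO and 43.9, 55.3 and 66.2 in WT (exact permutation p = 0.343). The share of cDC1 with an Xcr1 UMI was 33.0 ± 2.39% in KO and 36.2 ± 8.62% in WT (exact permutation p = 0.457). Adjusted over the 5 tests, these p-values were 0.8286, 0.8286, 0.762 and 0.762.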

How the data were processed

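Single-cell UMI counts of 7 libraries, 1 per mouse (4 KO, 3 WT), were analysed. The deposited matrix holds estimated counts (UMIs) per gene and cell, of which 7.51% of the non-zero values were not whole. Per the submitters' processing notes the tools named were STARsolo, STAR 2.7.10a and FastQC 0.11.5, with build mm10; cell filters and doublet removal are not given in the sources used here. The deposited cell table gives the cell type names of the authors, which were used as they stand, and also a count of detected genes and the percent of mitochondrial and ribosomal UMIs by the authors, which were not used in any result.

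UMIs were summed per mouse and cell type and scaled to 1000000 UMIs per sum (CPM), where a mouse had at least 20 cells. For KO against WT the sums were rounded and tested in edgeR 4.0.16 (R 4.3.3; TMM, filterByExpr, robust quasi-likelihood fit, a genotype term) with Benjamini-Hochberg adjustment and a threshold of 0.05; the 4 CD8 annotations were summed. DESeq2 1.42.0 was an alternative. In data simulated for cDC1, 60% of 200 genes changed 2-fold and 100% of those changed 4-fold were recovered, and for NK cells 45.5% and 100%. The simulation gave all genes the same spread between mice and changed only genes of higher counts. Single values were tested by two-sided exact permutation over the 35 splits of mice. Shares of cells with a UMI were taken after thinning each cell to 1500 UMIs, leaving out shallower cells. No doublet caller was run; cells above the 95th percentile of UMIs were left out as an alternative. Intervals of shares are exact (Clopper-Pearson) at 95%.

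Named genes were the 9 members, the 3 genes closest to each in pattern (among those with at least 100 UMIs), list genes that passed the threshold and, for each list, 2 to 4 genes with the highest level in the cell type of its name. Other genes named (Id2, Nfil3, Stat5a, Shisa5, Zfp36l2, Basp1 and the list genes given for where they were highest) fall outside this rule and were chosen after their values were seen. The members and lists were chosen with earlier results of these data known. Alternatives covered the test, scaling, filter, minimum of cells (10), values that were not whole, high-UMI cells, thinning depth (2500), the replicate number as a block and each mouse left out.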

Additional observations from a re-analysis of the deposited data

Results flagged for a closer look

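In cDC1, Xcr1 was 278.9 CPM in KO replicate 1, apart from the other KO mice, which lay between 333.1 and 342.5. In CD8 T cells, Irf8 was 230.1 CPM in KO replicate 1, against 182.3 to 184.5 in the other KO mice. Both stood further from the nearest mouse, relative to the range of the group, than Dixon's 95% critical value for 4 samples. These were 2 of the 41 groups of 4 KO mice looked at, and chance alone marks about 1 in 20 such groups.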

How the results depend on the processing

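Of the 36 member results, 33 passed under none of the alternatives run, 3 passed only with no filter on low counts, and 16 changed sign under at least 1 alternative. The cause of each change was not tested. The number of genes called in cDC1, annotated cDC2, mo-DCs, plasmacytoid cells, NK cells and CD8 T cells was 15, 13, 34, 6, 4 and 13 with DESeq2 and 105, 113, 182, 38, 27 and 22 with no filter. Without high-UMI cells 0 genes were called in NK cells. With 1 mouse left out the counts ran from 0 to 3, 0 to 4, 0 to 2, 0 to 12, 0 to 3 and 0 to 41, in the same order; the 41 came without WT replicate 3 and the 12 without WT replicate 2.

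With the replicate number as a block, fitted on replicates 1 to 3 and so without KO replicate 4, the counts were 5, 25, 3, 38, 5 and 5. Same-numbered KO and WT mice correlated at -0.31 to 0.12 in their deviations, so the numbers did not pair the mice. With any 1 mouse left out, KO replicate 4 included, at most 4 genes were called in annotated cDC2 and 12 in plasmacytoid cells. The block gave 25 and 38 there. In CD8 T cells the count with 1 mouse left out reached 41, against 5 with the block. In mo-DCs leaving out KO replicate 4 alone gave -0.90 for Clec9a, -0.58 for Xcr1 and -0.39 for Irf8. The cause of these changes was not tested. Under the block the log2 fold change was 0.047 for Tcf4 in cDC1, -0.016 for Spib and -0.12 for Clec9a in annotated cDC2, -0.96 for Clec9a, -0.75 for Xcr1 and -0.40 for Irf8 in mo-DCs, and 0.32 for Irf4 in CD8 T cells. The block difference was 66.9 CPM for Xcl1 and -16.0 for Xcr1 in the whole library, and -1.81 percentage points for the share of NK cells with an Xcl1 UMI, 0.442 for that of CD8 T cells and -3.79 for that of cDC1 with an Xcr1 UMI. As means over replicates 1 to 3, these differences equal those with KO replicate 4 left out.

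Other changes of sign without a mouse left out were small: Tcf4 in cDC1 was 0.0090 with no TMM, 0.0014 with no filter and 0.0026 with whole values only, Spib in annotated cDC2 was -0.031 without high-UMI cells, Xcl1 in NK cells was 0.055 with no filter, Irf8 in CD8 T cells was -0.0039 with whole values only, and Irf4 in CD8 T cells was 0.031 with DESeq2, 0.019 with no filter and 0.0041 without high-UMI cells. The cDC1 share with an Xcr1 UMI differed by 2.13 points without thinning. With 1 mouse left out the log2 fold change ran from -0.25 to 0.0059 for Xcr1 and -0.15 to 0.23 for Tcf4 in cDC1. In annotated cDC2 it ran from -0.18 to 0.60 for Spib, -0.20 to 0.43 for Clec9a and -0.36 to 0.056 for Tcf4. In mo-DCs it ran from -0.90 to 0.42 for Clec9a, -0.58 to 1.13 for Xcr1, -0.39 to 0.23 for Irf8 and -0.43 to 0.13 for Tcf4. For Irf4 in plasmacytoid cells it ran from -0.17 to 0.54. In NK cells it ran from -0.63 to 0.14 for Irf8, -0.30 to 0.031 for Tcf4 and -0.16 to 0.20 for Xcl1. In CD8 T cells it ran from -0.29 to 0.79 for Irf4, -0.24 to 0.61 for Irf8 and -0.55 to 0.063 for Tcf4. The KO minus WT difference in shares ran from -1.81 to 8.64 points (NK cells), -0.718 to 3.17 (CD8 T cells) and -7.88 to 0.602 (cDC1). The simulated data had 1 set spread for all genes and changes only in genes of higher counts. In them 60% of 2-fold changes were recovered in cDC1 and 45.5% in NK cells, so changes of this size could be missed. These rates do not describe members with few UMIs or a wider spread between mice.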

Other observations

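NK cells with and without an Xcl1 UMI differed in depth and in the levels of other signal genes, with no common direction. The 584 NK cells with Xcl1 had a median of 6278 UMIs and the 325 without had 3450. Ifng was 133 CPM in the first and 263 in the second, and Ccl3 was 31.9 and 134, while Csf2 was 15.7 and 3.87. In Tfh-annotated cells Ifng was 1880 CPM in cells with Xcl1 and 1462 in those without, Ccl3 was 1680 and 1052, and Csf2 was 204 and 265. No test was run on these values, as the cells were divided by a measured gene and by a detection that depends on depth.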
